A study of Homo sapiens with 6 samples.

Results

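The replication-dependent histone genes encode the bulk of the proteins around which newly copied DNA is wrapped. Membership was set by name: a protein-coding row of the deposited table belonged to the family where its Ensembl gene identifier maps to a symbol from H1-1 to H1-6, or to one starting with H2AC, H2BC, H3C or H4C and a number. An older name starting with HIST1 to HIST4 also qualified, which added H3-4. The rule found 71 genes among the 60617 rows: 6 for the linker histone H1, 17 for H2A, 19 for H2B, 14 for H3 and 15 for H4. The rule uses names and no measured value.

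RNA was sequenced from NCI-H1299, an established human lung cancer cell line. The 3 control libraries have Puro in their titles and the genotype WT. The other 3 libraries have Sh1 in their titles and come from cells in which FuHsi was knocked down, a comparison made to learn what FuHsi does in the nucleolus. The labels name 1 cell line, 1 knockdown title series and no further treatment, and they do not spell out Puro or Sh1. Nothing in them says that replicates came from separate cultures, so p-values measure only the spread between these libraries, which may be technical. The FuHsi transcript itself was not analysed here, because the sources used here give no row or symbol for it.

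Core histones H2A, H2B, H3 and H4 form the nucleosome, and H1 binds the DNA between nucleosomes. Most of their mRNA is made in S phase, from intronless genes that stand in clusters and exist in many copies. These mRNAs usually end in a conserved stem-loop in place of a poly(A) tail: the stem-loop binding protein SLBP and the U7 snRNP recognise the end of the precursor, and the transcript is cut just after the loop. Some histone genes can also be read through to a poly(A) site further on, giving a polyadenylated mRNA. Whether poly(A) RNA was selected for these libraries is not given in the sources used here, so stem-loop-ended mRNAs may be under-represented.

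A selection of stem-loops is shown because they mark the normal end of each mRNA. They are the common form in H2A and H2B, a differing form in H2A, another in H3, and those of 4 changed H4 genes. Each line gives the stem-loop in capitals with 5 flanking bases in lower case on either side, 5′ to 3′ on the transcript strand, written as DNA from GENCODE v29 transcripts on GRCh38, with the position of the capitals in the same build as the hg38 used by the authors.
H2AC6, chr6:26124669-26124684, plus strand: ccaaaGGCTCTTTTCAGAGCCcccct
H2AC11, chr6:27133515-27133530, plus strand: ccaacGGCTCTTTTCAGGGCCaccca
H2BC9, chr6:26252055-26252070, plus strand: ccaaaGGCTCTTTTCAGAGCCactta
H2BC15, chr6:27839090-27839105, plus strand: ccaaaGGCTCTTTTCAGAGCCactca
H3C8, chr6:26270923-26270938, minus strand: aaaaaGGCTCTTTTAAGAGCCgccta
H4C8, chr6:26285131-26285146, minus strand: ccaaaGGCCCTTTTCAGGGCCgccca
H4C9, chr6:27139654-27139669, plus strand: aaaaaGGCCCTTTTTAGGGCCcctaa
H4C14, chr1:149833032-149833047, plus strand: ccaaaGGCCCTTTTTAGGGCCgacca
H4C16, chr12:14770724-14770739, minus strand: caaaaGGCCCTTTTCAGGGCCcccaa

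A stem-loop was searched on the transcript strand, after the stop codon, as the 16 letters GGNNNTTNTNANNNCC, and was found in the annotated 3′ untranslated region of 32 of the 71 members, 22 to 67 bases after the stop codon. In 17 of the 32 it read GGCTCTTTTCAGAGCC: 6 of 7 in H2A, 8 of 11 in H2B, 3 of 6 in H3 and 0 of 8 in H4. Counted from 1 at the first capital, all 8 H4 stem-loops carried both T4C and A13G, a matched change on the arms of the stem, and none of the 24 others carried both, although H2AC11 carried A13G alone. C10A in the loop was found in 5 members (H2BC4, H2BC5, H2BC7, H3-4 and H3C8), C10T in H4C9, H4C14 and H4C15, and T8C in H3C6. The loose motif, anywhere on the transcript strand, occurs in 3.715% of the 58676 annotated genes with a transcript, whereas the exact 16 letters of the common form occur in 20 genes (0.0341%), 17 of them members. The common H4 form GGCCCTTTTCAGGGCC occurs in 5 genes (0.00852%), all 5 members. The latter forms are instances of the loose motif. A match is a description of these letters and not evidence of processing.

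The libraries held 30735547 to 34306849 counts in control and 24231515 to 27900051 in knockdown, so every control library was the deeper one. Values below are in CPM, the usual unit of counts scaled to a fixed library total, here on library sizes corrected by TMM, a method that centres most genes; without that scaling the median log2 fold change of all genes moves up by 0.15. Of 5 epithelial markers only KRT8 and KRT18 were above 1 CPM on average, with summed levels of 824 to 834 CPM in control and 613 to 660 in knockdown. Lung lineage markers summed to at most 1.05 CPM in any library, with SFTPC and SLC34A2 at 0. Fibroblast markers summed to 1.63 to 2.56 CPM in control and 3.15 to 4.43 in knockdown, leukocyte markers to 0.401 to 0.856 and 1.01 to 1.49, and endothelial markers to 1.04 to 1.49 and 1.14 to 2.01.

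Histone mRNA was a very small share of these libraries. Summed over the 71 members, it made up 0.0435% ± 0.00111 (SD, n = 3) of all counts in control and 0.0438% ± 0.00259 in knockdown. A count was recorded for 57 members, while 14 had none in any library: H2AC1, H2AC7, H2AC15, H2AC17, H2AC25, H2BC1, H2BC26, H3-4, H3C4, H3C11, H3C14, H3C15, H4C7 and H4C13. The filter on low counts (about 10 counts in at least 3 libraries) left 32 members for testing. The 25 members with a count below the filter never passed 25 counts in a library. That highest value was for H4C3, followed by H2AC16 at 21 and H1-5 at 16. The others were H1-1, H1-3, H1-6, H2AC4, H2AC12, H2AC18, H2AC19, H2AC21, H2BC3, H2BC10, H2BC12L, H2BC14, H3C1, H3C3, H3C6, H3C7, H4C1, H4C2, H4C4, H4C6, H4C11 and H4C15.

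Which members were detected went with the annotated end of the transcript. In GENCODE v29, 23 members have a transcript that runs at least 100 bases past the stem-loop, and 17 of these were tested. Of the 9 whose transcript stops close to the stem-loop 4 were tested, of the 34 with no annotated 3′ untranslated region 9 were tested, and of the 5 whose untranslated region holds no stem-loop 2 were tested. The median of the highest count per member was 203 in the extended class, 13 in the class ending near the stem-loop and 4.5 in the class without an untranslated region. Exonic length moved with these classes, with medians of 1929, 503 and 393 bases, so length and kind of end cannot be told apart. Shared sequence moved with detection as well: at least 50% of the exonic bases overlap another gene in 4 of the 14 members without a count (H2AC7, H2AC15, H2AC17 and H3C4) and in 0 of the 57 with one. At least 50% of the stretches of 100 bases occur in another gene in 6 of the 14, H3C14 and H3C15 included, and in 10 of the 57. The part of read assignment in these zeros was not tested. The authors' annotation release is not given in the sources used here and may assign other lengths; H2BC12, the member with the most counts, has a coding-only model in GENCODE v29.

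**Figure D1:**
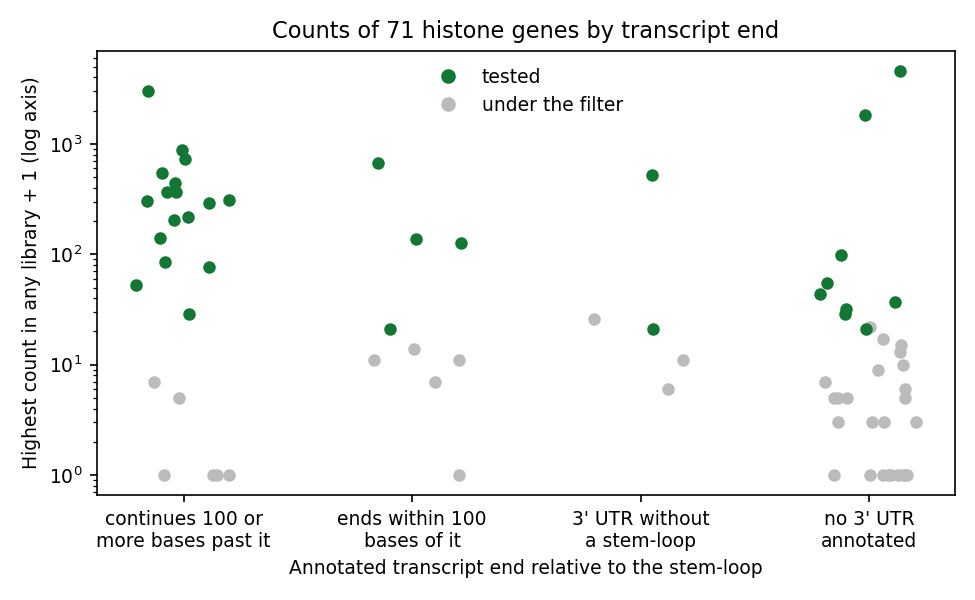
Highest count of each member in any library (count + 1, log axis) by the annotated end of its transcript, with each point 1 of the 71 members and colour separating the 32 tested from the 39 under the filter. The extended class has a median highest count of 203, against 13 where the transcript stops near the stem-loop.

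Between groups the family split rather than moving one way. Of the 32 tested members 11 rose in knockdown, 10 fell and 11 were not called by edgeR's quasi-likelihood test at an adjusted p under 0.05 (Benjamini-Hochberg over 17223 genes). The same call was made for 30.7% of all tested genes as higher and 30.9% as lower, 61.6% in all, so the members' share of calls was near that of the background. On library size alone the members split into 12 higher and 7 lower. The groups did not overlap for 18 members, 9 in each direction, against 65.3% of all tested genes. The median log2 fold change of the tested members was -0.10 (all genes, 0.03), and it turned to 0.05 on library size alone. Changes of at least 2-fold were called for 4 members higher (H4C14, H4C16, H2BC18 and H3C13; 9.16% of all genes) and 2 lower (H2AC14 and H2AC20; 3.12% of all genes). H2AC14 and H2AC20 passed the filter only through control and H3C13 only through knockdown, so the filter fixed their directions and nothing is read from them. Without these 3, 10 of 29 tested members were called higher and 8 lower (median -0.08), and the called changes of at least 2-fold were 3 higher and 0 lower. The count of 11 higher fell to 7 without control replicate 2 and to 6 without knockdown replicate 3. For a member that fell, fewer cells in S phase and less of its mRNA per cell cannot be told apart in a bulk sample.

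**Figure D2:**
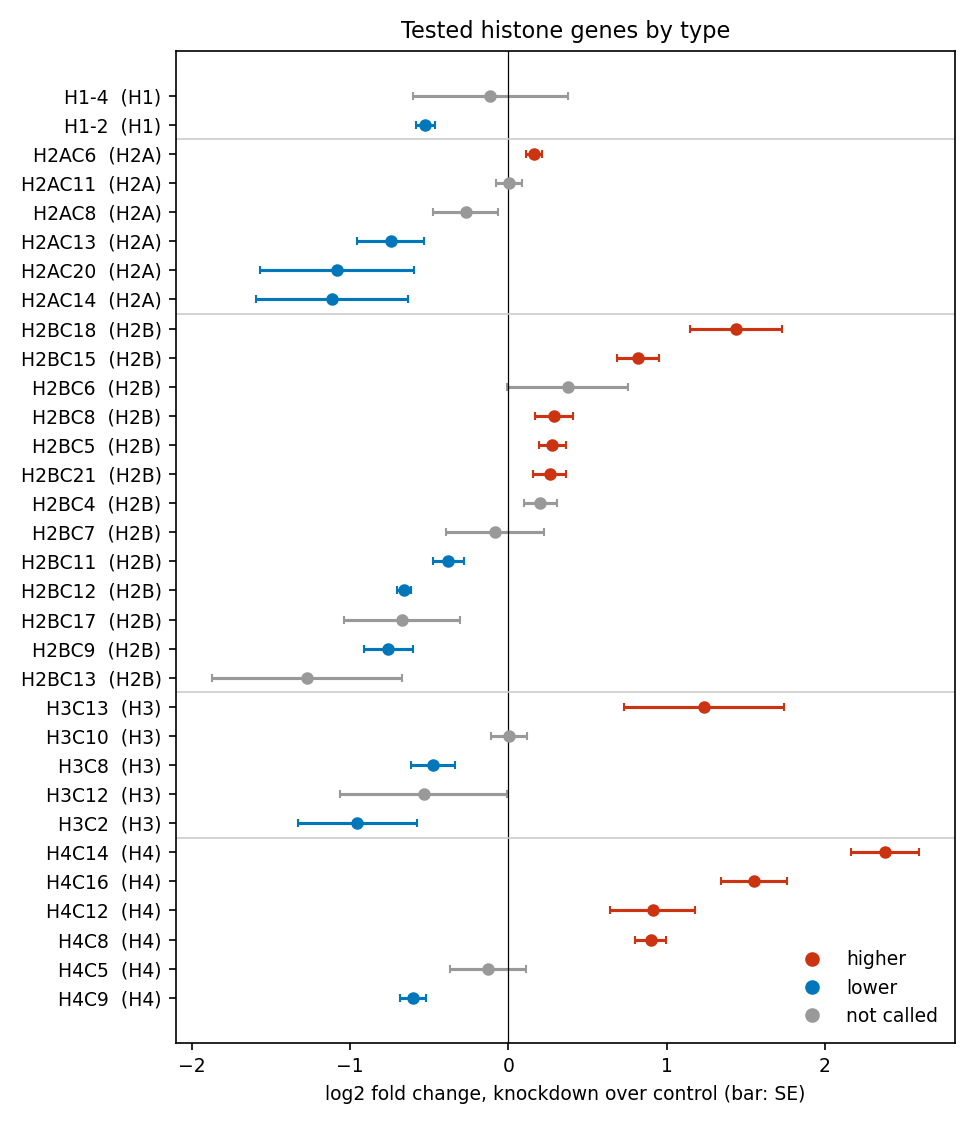
Log2 fold change of knockdown over control with its standard error (bars) for the 32 tested members, grouped by histone type and coloured by call. H4 spans from H4C9 at -0.60 to H4C14 at 2.38, and H2B holds both H2BC18 at 1.44 and H2BC12 at -0.66.

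Linker histone mRNA fell. H1-2 (ENSG00000187837, chr6:26055787-26056428, minus strand), which encodes a somatic linker histone, had 56.0, 55.5 and 52.4 CPM in control and 38.1, 34.2 and 41.5 CPM in knockdown. All 3 knockdown libraries lay below all 3 controls. Its log2 fold change was -0.53 ± 0.06 (SE, adjusted p = 3.71e-11 by edgeR), and it made up 98.0% of all counts of H1 members. H1-4, the other tested linker gene, was at 0.346 to 0.616 CPM in control and 0.237 to 0.626 in knockdown, and was not called (log2 fold change -0.11 ± 0.49, adjusted p = 0.857 by edgeR).

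H2A pairs with H2B to form the dimers on the outer faces of the nucleosome core. Among the 6 tested H2A genes 1 rose and 3 fell, beside 30.7% higher and 30.9% lower among all genes. Their median log2 fold change was -0.51. Without H2AC14 and H2AC20, whose direction the filter fixed, 1 of 4 was called higher and 1 lower (median -0.13). H2AC6 (ENSG00000180573, chr6:26124145-26139116, plus strand), with 74.9% of H2A counts, had 92.2, 84.0 and 88.0 CPM in control and 91.0, 97.4 and 107 CPM in knockdown. The groups overlapped, since knockdown replicate 1 lay below control replicate 1, yet the gene was called higher (log2 fold change 0.16 ± 0.05, adjusted p = 0.00362 by edgeR). That call was lost without control replicate 2, without knockdown replicate 3 and in DESeq2. H2AC11 had 22.2, 22.5 and 24.4 CPM in control and 22.7, 21.5 and 25.1 CPM in knockdown. These ranges lie on top of each other, and the log2 fold change was 0.00 ± 0.08.

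The remaining H2A genes had lower counts. H2AC13 had 3.85, 2.84 and 3.88 CPM in control and 2.16, 1.70 and 2.43 CPM in knockdown, with no overlap and a log2 fold change of -0.74 ± 0.21 (adjusted p = 0.00195 by edgeR). H2AC14 had 28, 23 and 15 counts in control and 14, 6 and 6 in knockdown, with a log2 fold change of -1.11 ± 0.48 (adjusted p = 0.0391 by edgeR). H2AC20 had 36, 18 and 22 counts in control and 4, 20 and 6 in knockdown, so that knockdown replicate 2 lay above control replicate 2 (log2 fold change -1.08 ± 0.48, adjusted p = 0.0481 by edgeR). Neither of these last 2 calls was made on library size alone. The H2AC14 call was also lost without control replicate 1 or 2 or knockdown replicate 2 or 3, and the H2AC20 call without control replicate 1 or 3 or knockdown replicate 1 or 3. Of the exonic stretches of 100 bases, 80.9% in H2AC14, 57.7% in H2AC13 and 17.2% in H2AC20 also occur in another gene, so the counts of H2AC14 and H2AC13 above all depend on how such reads were assigned. H2AC8 was not called (log2 fold change -0.27 ± 0.21).

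H2B held the most counts of any type and moved in both directions. Of its 13 tested genes 5 rose, 3 fell and 5 were not called, beside 30.7% higher and 30.9% lower among all genes. Their median log2 fold change was 0.20. H2BC12 (ENSG00000197903, chr6:27146418-27146798, minus strand), with 56.3% of H2B counts and 25.7% of all member counts, had 139.7, 134.2 and 134.4 CPM in control and 80.2, 88.0 and 90.3 CPM in knockdown. The groups were far apart relative to their spread, 136 ± 3.13 against 86.2 ± 5.31 CPM (SD, n = 3), and the log2 fold change was -0.66 ± 0.04 (adjusted p = 2.71e-20 by edgeR). H2BC12 shares 28.4% of its stretches of 100 bases with another gene. H2BC11 had 15.02, 16.2 and 16.4 CPM in control and 13.1, 11.1 and 12.3 CPM in knockdown, and fell by 0.38 ± 0.10 on the log2 scale (adjusted p = 0.000625 by edgeR). H2BC9 had 6.58, 5.95 and 6.75 CPM in control and 3.69, 4.22 and 3.48 CPM in knockdown, a log2 fold change of -0.76 ± 0.16 (adjusted p = 2.61e-05 by edgeR). For H2BC11 and H2BC9, too, every knockdown library lay below every control library.

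The H2B genes that rose were H2BC5, H2BC8, H2BC15, H2BC18 and H2BC21, and for each of them all knockdown libraries lay above all controls. H2BC15 had 6.12, 5.86 and 4.92 CPM in control and 10.5, 10.4 and 8.89 CPM in knockdown, a log2 fold change of 0.82 ± 0.13 (adjusted p = 2.20e-07 by edgeR). H2BC18 had 0.979, 1.11 and 0.623 CPM in control and 2.16, 1.97 and 3.29 CPM in knockdown, a log2 fold change of 1.44 ± 0.29 (adjusted p = 1.84e-05 by edgeR). Of the stretches of 100 bases, 17.6% in H2BC18 and 5.46% in H2BC15 also occur in another gene. The 16 stem-loop letters of H2BC15 are the same as those of H2BC9, which fell. H2BC9 was the only H2B gene called lower that has an annotated stem-loop. A link between these letters and direction was not tested.

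The 3 remaining increases in H2B were small. H2BC5 had 18.0, 18.9 and 19.6 CPM in control and 20.6, 21.96 and 26.1 CPM in knockdown, a log2 fold change of 0.28 ± 0.09 (adjusted p = 0.00388 by edgeR) that lost its call without knockdown replicate 3. H2BC21 had 11.01, 10.1 and 11.7 CPM in control and 12.3, 13.9 and 13.2 CPM in knockdown, with a log2 fold change of 0.26 ± 0.10. H2BC8 had 7.86, 7.92 and 9.66 CPM in control and 9.84, 10.6 and 10.6 CPM in knockdown, with a log2 fold change of 0.29 ± 0.12. Both adjusted p-values from edgeR were close to the threshold (0.0276 for H2BC21 and 0.0303 for H2BC8), and both calls were lost without control replicate 1, control replicate 2, knockdown replicate 2 or knockdown replicate 3. H2BC4, with 11.4, 11.4 and 14.6 CPM in control and 14.9, 13.1 and 14.95 CPM in knockdown, overlapped between groups and was not called (adjusted p = 0.0884 by edgeR), though it was on library size alone and without control replicate 3. H2BC6, H2BC7, H2BC13 and H2BC17 were at most 1.66 CPM in every library and were not called, with log2 fold changes from -1.27 (H2BC13) to 0.37 (H2BC6); H2BC13 and H2BC17 were called lower without control replicate 1 or knockdown replicate 3.

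H3 and H4 form the tetramer at the centre of the nucleosome. Of 5 tested H3 genes 1 rose (H3C13, through the filter on knockdown alone) and 2 fell, with a median log2 fold change of -0.48. Among all genes 30.7% were called higher and 30.9% lower. H3C10, with 52.1% of H3 counts, had 11.3, 8.91 and 10.2 CPM in control and 9.84, 9.86 and 10.8 CPM in knockdown. The groups overlapped fully, with a log2 fold change of 0.01 ± 0.11. H3C8 had 7.77, 9.25 and 7.86 CPM in control and 6.49, 6.66 and 4.70 CPM in knockdown, without overlap (log2 fold change -0.48 ± 0.14, adjusted p = 0.00235 by edgeR). H3C2 was lower too, at 1.18 to 1.32 CPM in control and 0.391 to 1.03 in knockdown (log2 fold change -0.96 ± 0.38, adjusted p = 0.0238 by edgeR), a call lost on library size alone and without control replicate 1 or 2 or knockdown replicate 1 or 3. H3C13 had 18, 6 and 5 counts in control and 14, 13 and 31 in knockdown. It overlapped between groups (log2 fold change 1.24 ± 0.51, adjusted p = 0.0298 by edgeR). It shares 51.3% of its stretches of 100 bases with another gene, and its call was lost without control replicate 2, control replicate 3 or knockdown replicate 3. H3C12 was not called (log2 fold change -0.54 ± 0.53), and 44.6% of its exonic bases overlap an exon of another gene.

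Of 6 tested H4 genes 4 rose and 1 fell, with a median log2 fold change of 0.90, beside 30.7% higher and 30.9% lower among all genes. No test compared the types, and H4C14 and H4C12, 2 of the 4 that rose, share nearly all of their sequence with other genes. H4C8 (ENSG00000158406, chr6:26277609-26285638, minus strand) had 10.4, 10.5 and 9.87 CPM in control and 18.3, 18.0 and 21.2 CPM in knockdown. Its groups were well apart, with a log2 fold change of 0.90 ± 0.10 (adjusted p = 4.39e-12 by edgeR). H4C9 (ENSG00000276180, chr6:27138588-27139881, plus strand) went the other way, from 26.9, 23.8 and 24.3 CPM in control to 14.7, 17.7 and 17.1 CPM in knockdown. No knockdown library reached the lowest control, and the log2 fold change was -0.60 ± 0.09 (adjusted p = 9.52e-09 by edgeR). Neither gene shares a stretch of 100 bases with another gene.

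The 2 H4 genes that rose by more than 2-fold stand outside chromosome 6. H4C16 (ENSG00000197837, chr12:14767999-14771131, minus strand), the only member on chromosome 12, had 1.62, 1.26 and 1.73 CPM in control and 4.70, 4.46 and 4.34 CPM in knockdown. The lowest knockdown library was well above the highest control, with a log2 fold change of 1.55 ± 0.21 (adjusted p = 3.03e-09 by edgeR). H4C14 (ENSG00000270882, chr1:149832659-149839767, plus strand) showed the highest fold change of all tested members, with 36, 56 and 24 counts in control and 170, 142 and 203 in knockdown. That is 1.22 ± 0.459 against 6.43 ± 1.31 CPM (SD, n = 3), a log2 fold change of 2.38 ± 0.22 (adjusted p = 1.57e-14 by edgeR). H4C14 is uncertain as a single gene, because 94.9% of its stretches of 100 bases occur in another gene. Which gene shares each stretch was not recorded. H4C15 of the same cluster, with 97.1% of its own stretches shared, had at most 6 counts. H4C12 had 1.25 to 1.41 CPM in control and 1.62 to 3.31 in knockdown, without overlap (log2 fold change 0.91 ± 0.27, adjusted p = 0.00257 by edgeR). All of its stretches of 100 bases occur in another gene and its call was lost without knockdown replicate 1. H4C5 was not called (log2 fold change -0.13 ± 0.24). H4C9, which fell, and H4C14, which rose, carry the same 16 stem-loop letters.

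**Figure D3:**
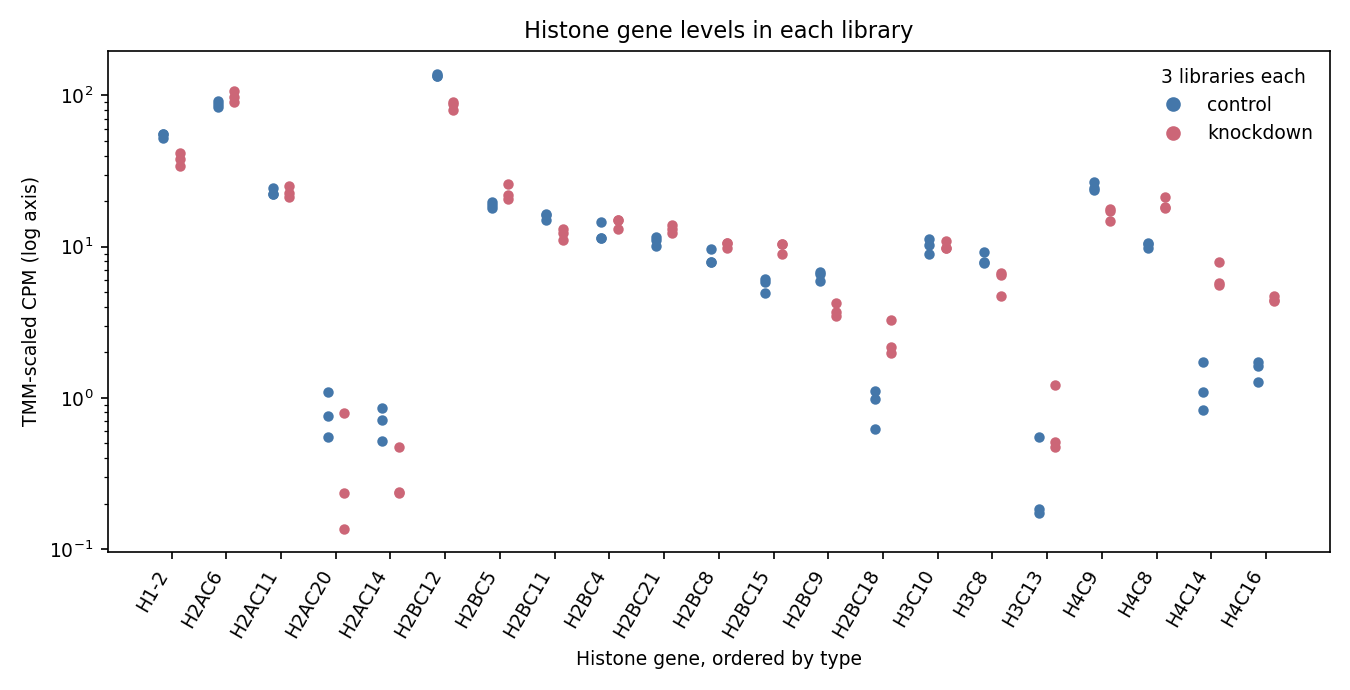
CPM of each library (log axis) for the 21 members with a mean of at least 5 CPM or a called change of at least 2-fold, with 3 control and 3 knockdown points for each gene. H2BC12, H1-2 and H4C9 are separated downwards, and H4C8, H4C14 and H4C16 are separated upwards.

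Sums over each type weight the members by their counts. The H1 sum went from 55.6 ± 1.76 to 38.9 ± 3.52 CPM (SD, n = 3; log2 ratio -0.51), almost all of it H1-2. The H2A sum was 121 ± 5.72 against 128 ± 10.5 CPM with overlapping groups (log2 ratio 0.09). H2B went from 220 ± 3.63 to 179 ± 8.73 CPM (log2 ratio -0.30) and H3 from 20.7 ± 0.584 to 18.1 ± 0.414 CPM (log2 ratio -0.20), both without overlap. After TMM scaling the H4 sum was the only one that was higher in every knockdown library. It was 42.8 ± 2.39 CPM in control and 51.8 ± 3.72 CPM in knockdown (log2 ratio 0.28). Within the H4 sum H4C8 went from 10.3 to 19.2 CPM on average and H4C14 from 1.22 to 6.43. H4C9, the only H4 gene called lower, went from 25.0 to 16.5 CPM. The H4C14 part is uncertain, because 94.9% of its stretches of 100 bases occur in another gene. As a share of all counts the H2A sum was higher in every knockdown library too, at 0.0127% to 0.0147% against 0.0109% to 0.0120% in control.

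The sum over all members was lower in knockdown after TMM scaling, at 470, 449 and 460 CPM against 396, 406 and 444 (log2 ratio -0.14), but this direction turned to a log2 ratio of 0.01 on library size alone. It also rested on 1 gene: without H2BC12 the log2 ratio was 0.03. The sign changed again as the next most counted members were left out, to -0.03 without H2AC6 as well and to 0.09 without H1-2 too. For H1, H2A, H2B, H3 and H4 the sign of the sum was the same on library size alone, where the log2 ratios were -0.36, 0.24, -0.15, -0.05 and 0.43.

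Within H4 the leading members exchanged places, and within H2B the shares shifted. H4C9 supplied 58.4% ± 1.83 (SD, n = 3) of H4 counts in control and 31.9% ± 2.93 in knockdown, while H4C8 went from 24.04% ± 1.05 to 36.9% ± 0.984. H4C14 went from 2.85% ± 1.09 to 12.3% ± 1.61, and H4C16 from 3.61% ± 0.629 to 8.72% ± 0.915. H4C9 was thus the most counted H4 member in control and H4C8 in knockdown, a comparison of counts that takes no account of gene length. In H2B, H2BC12 kept first place but dropped from 62.0% ± 1.55 to 48.2% ± 1.19, and H2BC5 went from 8.58% ± 0.340 to 12.8% ± 0.993. Such shares do not depend on the scaling between libraries.

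**Figure D4:**
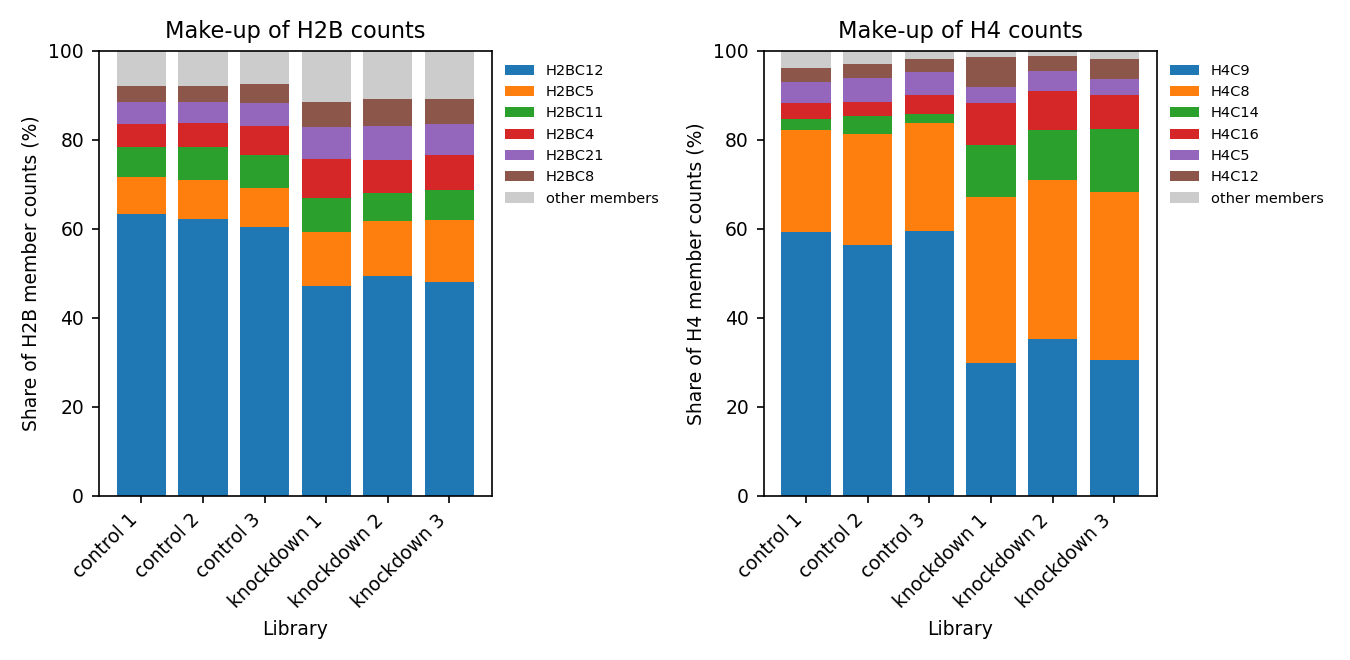
Share of the H2B and H4 member counts (percent, stacked bars) that each gene supplied in each of the 6 libraries. The H4C9 segment shrinks from 58.4% on average in control to 31.9% in knockdown, and the H2BC12 segment from 62.0% to 48.2%.

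Histone genes stand in clusters, and the members were also counted by place. The larger cluster on chromosome 1 (chr1:149782689-149887916, 11 members) had 5 tested members, of which 4 rose (H2BC18, H2BC21, H3C13 and H4C14) and H2AC20 fell. Without H3C13 and H2AC20, whose directions the filter fixed, 3 of 3 rose, H4C14 among them with nearly all of its sequence shared. In the middle cluster on chromosome 6 (chr6:27125897-27147515, 5 members) 4 were tested: 3 fell (H2BC11, H4C9 and H2BC12) and H2AC11 was not called. The distal cluster (chr6:25726132-26285638, 34 members) had 14 tested members with 4 higher and 4 lower. The proximal one (chr6:27807444-27893843, 16 members) had 8, with 2 higher and 2 lower, one of these H2AC14. These counts are small, no test of a difference between clusters was made, and each stands beside the 30.7% higher and 30.9% lower of all genes.

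H2A and H2B genes often stand back to back around a shared promoter region. By the annotation 11 such pairs have their starts within 1000 bases of each other, 219 to 331 bases apart, and both genes were tested in 5 pairs. The log2 fold changes had the same sign in 2 of these 5 (H2AC6 and H2BC4, 0.16 and 0.20; H2AC13 and H2BC13, -0.74 and -1.27). H2AC20 at -1.08 faced H2BC21 at 0.26, the only pair with both genes called. The filter fixed the direction of H2AC20, so nothing is read from that pair, although it is 1 of the 5. H2AC11 at 0.00 faced H2BC11 at -0.38, and H2AC8 at -0.27 faced H2BC8 at 0.29.

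**Figure D5:**
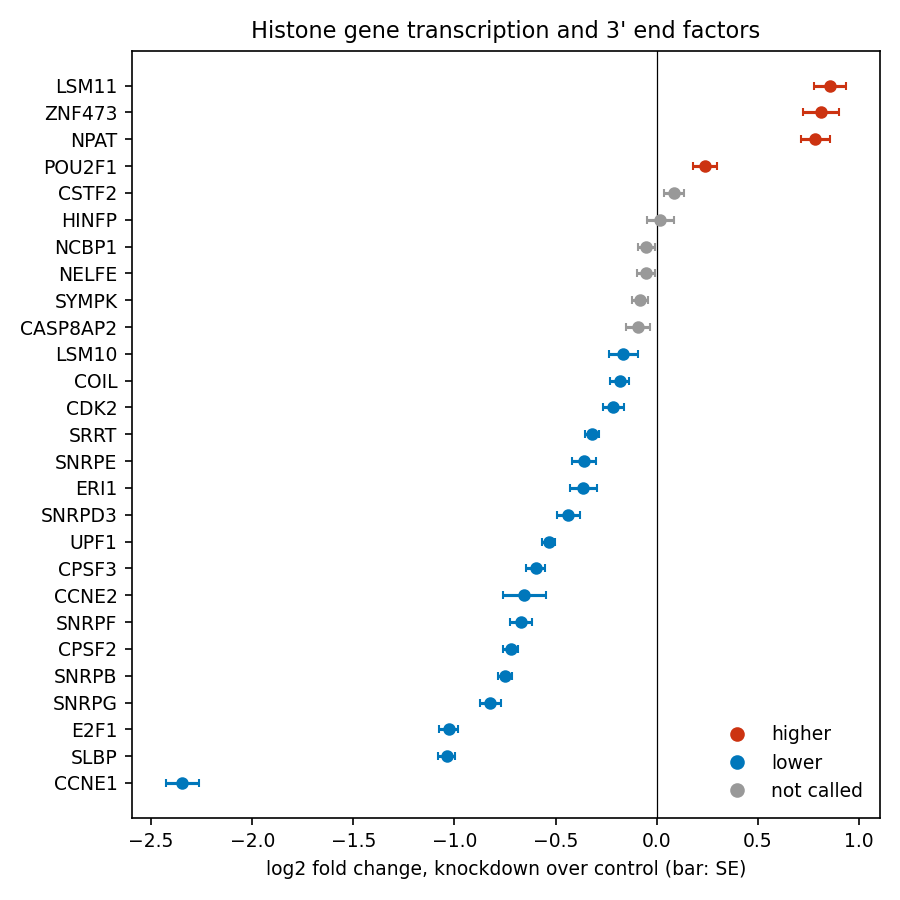
Log2 fold change of knockdown over control with its standard error (bars) for 27 tested genes of histone transcription and stem-loop processing, coloured by call. NPAT, LSM11 and ZNF473 are near 0.8 and SLBP is at -1.04.

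The factors that transcribe histone genes and process their ends were looked up from a list of 28 genes, 27 of them tested. Of these, 4 rose and 17 fell, with a median log2 fold change of -0.32 (8 rose and 14 fell on library size alone). Over all tested genes 30.7% were called higher and 30.9% lower, the background for this list and for those that follow. SLBP, which binds the stem-loop, had 188, 187 and 189 CPM in control and 95.4, 93.9 and 84.9 CPM in knockdown. It was clearly lower in every knockdown library (log2 fold change -1.04 ± 0.04, adjusted p = 1.87e-30 by edgeR). NPAT, the coactivator of histone transcription at histone locus bodies, had 22.1, 20.2 and 20.1 CPM in control and 35.8, 34.03 and 37.8 CPM in knockdown, all above the controls (log2 fold change 0.78 ± 0.07, adjusted p = 1.60e-14 by edgeR).

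Members of the U7 snRNP and its cleavage complex moved both ways. The ring proteins that the U7 snRNP shares with spliceosomal snRNPs all fell, with log2 fold changes of -0.82 for SNRPG, -0.75 for SNRPB, -0.67 for SNRPF, -0.44 for SNRPD3 and -0.36 for SNRPE. The cleavage factors CPSF2 (-0.72) and CPSF3 (-0.60) fell as well, but SYMPK (-0.08) and CSTF2 (0.09) of the same list were not called. LSM11, a protein specific to the U7 snRNP, went up by 0.86 ± 0.08 on the log2 scale (adjusted p = 6.60e-15 by edgeR), and ZNF473, a zinc finger protein of the same pathway, by 0.81 ± 0.09 (adjusted p = 6.22e-12 by edgeR). LSM10, the partner of LSM11 in the U7 snRNP ring, was called lower by 0.17 on the log2 scale (adjusted p = 0.0396 by edgeR), a call lost without control replicate 1, control replicate 3 or knockdown replicate 3, and on library size alone. CASP8AP2, which also sits at histone locus bodies, was not called (log2 fold change -0.09 ± 0.06, adjusted p = 0.167 by edgeR). CCNE1, the cyclin whose kinase phosphorylates NPAT, fell by 2.35 ± 0.08 on the log2 scale (adjusted p = 2.33e-33 by edgeR), and E2F1, a transcription factor of S phase genes, by 1.03. POU2F1, which binds H2B promoters, rose by 0.24. RNU7-1, the U7 RNA itself, was not tested.

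Genes that act with histones outside the family mostly fell. Of 22 tested histone chaperones and related factors 4 rose and 18 fell (median log2 fold change -0.52), among them NAP1L1 at -1.05, TONSL at -1.04 and NASP at -1.03, while ASF1A at 0.92, UBN1 at 0.49 and ATRX at 0.40 were highest. Of 11 tested histone variants and replication-independent histones, most of which have polyadenylated mRNAs (H2AX makes both kinds), 2 rose (MACROH2A2 at 0.56 and H2AJ at 0.26) and 8 fell, with CENPA, the centromeric H3, at -0.85, H2AX at -0.76 and H2AZ2 at -0.58. Of 30 S phase replication genes 27 fell and 1, TYMS, was called higher, with a median log2 fold change of -0.63. MCM6 of the replicative helicase was at -2.73, RFC3 of the clamp loader at -2.41 and RRM2 of ribonucleotide reductase at -1.56. The TYMS call (log2 fold change 0.14, adjusted p = 0.0463 by edgeR) was lost in 9 of 12 alternative settings, leaving out any library but knockdown replicate 3 among them. The lower S phase genes moved with the lower histone members and against the higher ones, and their part in either was not tested.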

How the data were processed

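RNA of 6 NCI-H1299 libraries was sequenced. The deposited values are raw read counts, 1 row for each Ensembl gene identifier and 1 column for each library, per the file headers and values. The submitters' processing notes list, in no stated order or role, the programs STAR (2.7.0d), Trim Galore (0.6.6), DESeq2 (1.30.1) and featureCounts (2.0.1), and the build hg38. The annotation release, the strandedness and the handling of reads with more than one alignment were not given in the sources used here, so counts of overlapping or near-identical genes are uncertain. RNAiso Plus and a TruSeq kit were used for RNA and libraries, per the labels' protocols.

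Groups were taken from the titles. Genes were filtered by expression (minimum count 10), scaled by TMM and tested with edgeR 4.0.16 (R 4.3.3, robust quasi-likelihood test, group as the only term, Benjamini-Hochberg over 17223 genes, called at an adjusted p under 0.05). The procedure was tested on simulated data. Standard errors are the log2 fold change divided by the root of F. CPM were computed on TMM-scaled library sizes. No library was a duplicate of another by a chi-square check of counts. Of the 71 members 70 were matched by current symbol, and 69 have the same identifier in GENCODE v29; H3C2 and H3C3 have another.

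Every tested member is named; library values are given for members with a mean of at least 5 CPM or a called change of at least 2-fold. From the lists, up to 3 genes in each direction by size of change are named, besides NPAT, SLBP, CASP8AP2, LSM10, LSM11 and ZNF473. POU2F1 was named after its value was seen. SNRPG, SNRPB, SNRPF, SNRPD3, SNRPE, CPSF2, CPSF3, SYMPK, CSTF2 and the untested RNU7-1 were also named outside this rule. Members and lists were chosen with earlier results of these data known. Alternatives were RLE factors, library size alone, no filter, a replicate block, DESeq2 1.42.0, leaving out each library, current symbols alone, and, added after seeing the data, counts thinned to the smallest library and the counts of calls without members that passed the filter through 1 group only.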

Additional observations from a re-analysis of the deposited data

How the results depend on the processing

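Of 21 called members 12 kept their call in all 12 settings tried for single genes: H1-2, H2AC13, H2BC9, H2BC11, H2BC12, H2BC15, H2BC18, H3C8, H4C8, H4C9, H4C14 and H4C16. The other 9 lost it in at least 1, and 3 of the 11 uncalled members (H2BC4, H2BC13 and H2BC17) were called in at least 1. DESeq2 called 7 members higher and 7 lower. Leaving out 1 library gave 6 to 11 members higher and 8 to 11 lower, 4962 to 5017 genes higher and 5050 to 5198 lower. Library size alone gave 12 members higher and 7 lower (all genes, 6986 and 3855) and moved the summed log2 ratios to 0.00854 over all members, where it reversed the direction, and to -0.36 (H1), 0.24 (H2A), -0.15 (H2B), -0.0461 (H3) and 0.43 (H4); the cause was not tested. Without 1 library these ratios were -0.19 to -0.11 (all), -0.58 to -0.45 (H1), 0.02 to 0.13 (H2A), -0.34 to -0.27 (H2B), -0.22 to -0.18 (H3) and 0.22 to 0.32 (H4).

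Reversals of single genes occurred only among uncalled ones. On library size alone H1-4 was at 0.0371, H2BC7 at 0.0697, H4C5 at 0.0250 and CASP8AP2 at 0.0601. H2AC11 was at -0.00683 with RLE factors, -0.0147 with no filter and -0.0224 in DESeq2. H3C10 was at -0.00419, -0.0122 and -0.0191 in these and at -0.00278 when thinned, where H4C5 was at 0.0210. Without 1 library the ranges were -0.45 to 0.20 (H1-4), -0.0655 to 0.0409 (H2AC11), -0.26 to 0.0718 (H2BC7) and -0.0884 to 0.0861 (H3C10).

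Same-numbered libraries did not deviate together (correlations -0.000751, -0.00642 and -0.0235), so the labels' numbers were not taken as a pairing; with a replicate block 11 members were higher and 9 lower (all genes, 5214 and 5263), H2AC20 losing its call. With no filter, 8 of the 57 members with a count were called higher and 8 lower. The 39 members under the filter had at most 25 counts in any library, and all 3 control libraries were the deeper ones; thinned to equal depth, 10 members were higher and 8 lower.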
